A study of Homo sapiens with 8 samples.

Results

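The claudin and connexin genes form the sealing and the communicating junctions between neighbouring cells. They were taken as every gene whose platform symbol is CLDN plus a number, or GJA, GJB, GJC or GJD plus a number, with the probe of highest mean intensity standing for each gene. The rule found 39 genes (23 claudins and 16 connexins) on 55 probes, out of 20046 genes with 1 symbol on the array. A total of 23 of them, 14 claudins and 9 connexins, were bright enough to enter the tests with 12436 genes in all.

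Claudins are membrane proteins with a pair of extracellular loops that pair up across the gap between cells and build the strands of the tight junction. Some, such as CLDN1, CLDN3, CLDN4 and CLDN7, tighten the seal, and others, such as CLDN2, CLDN10 and CLDN15, form pores for ions. Connexins assemble into hexameric half-channels, and those of adjoining cells dock into gap junction channels that pass ions and small metabolites. Human pluripotent stem cells grow as epithelial colonies, express CLDN6 and are coupled by gap junctions in which the GJA1 product is a main component.

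RNA came from 8 samples of H1, an established human embryonic stem cell line, with 1 Illumina array per sample and 2 arrays in each of 4 groups. All groups were grown feeder-free on Matrigel in mTeSR and received a lentivirus together with polybrene. The control virus is labelled EF1a-control, after a constitutive promoter, and the others OE-NANOG, OE-OCT4 and OE-SOX2, for overexpression of 3 transcription factors of the pluripotent state. The labels give neither the time from transduction to harvest nor whether replicates were separate cultures, so the tests rest on a spread between samples that could be technical only. Intensities are the authors' quantile-normalized values on a linear scale. Log2 changes and folds refer to those values after a background correction (normexp, offset 50), which takes an estimated background off each array. For dim genes they are larger than the ratios of the deposited intensities and depend on the offset. A change was called at an adjusted p under 0.05 in limma with Benjamini-Hochberg adjustment over all 12436 genes, with 2 arrays against 2. Every adjusted p below is of that kind unless another setting is named. The model estimated the spread of each gene over all 8 arrays and took it as equal in the 4 groups. An adjusted p thus also depends on arrays outside its comparison.

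None of the 6 probes of the factor genes was higher on both arrays of its own label than on both control arrays, and 1, a dim POU5F1 probe, had a slightly higher mean. On the arrays labelled NANOG the brightest NANOG probe read 347 and 387 against 491 and 358 in control, on those labelled OCT4 the POU5F1 probe read 1793 and 1501 against 3447 and 2833, and on those labelled SOX2 the SOX2 probe read 678 and 1071 against 1272 and 1587. Where these probes lie is not stated in the sources used, so whether they can detect the transduced genes was not tested, and arrays are called by their labels. Replicates lay furthest apart in the SOX2 group, where 303 genes differed by more than 1 log2 unit between the arrays, against 44 in control, 0 with NANOG and 42 with OCT4. Among the 23 tested junction genes the largest such difference was 0.568, for CLDN7 in the SOX2 group. Of the 13 embryonic stem cell markers, 12 were found and all 12 were above the filter. Against control PODXL fell with NANOG (log2 -1.03), and DNMT3B (-1.33), ZFP42 (-0.72) and SALL4 (-0.58) fell with SOX2. The summed intensity of the list was 32163 to 32732 in control, 29005 to 29780 with NANOG, 29160 to 30240 with OCT4 and 25813 to 28750 with SOX2.

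The largest differences among the junction genes were in connexins, and they ran in opposite directions. GJA4, the connexin of arterial endothelium and of the oocyte, rose 6.64-fold on the arrays labelled SOX2 and 2.36-fold on those labelled NANOG (4.85-fold and 1.92-fold on the deposited intensities). GJA1 fell on both (log2 -1.01 with SOX2 and -0.74 with NANOG). With OCT4 its change was -0.85, which missed the threshold (adjusted p = 0.0811). These comparisons share the same 2 control arrays. Among the claudins, CLDN23 rose on the arrays labelled NANOG and CLDN14 fell on those labelled SOX2. No member was called on the arrays labelled OCT4. As these are bulk samples, fewer cells with a transcript and less of it per cell cannot be told apart.

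**Figure D1:**
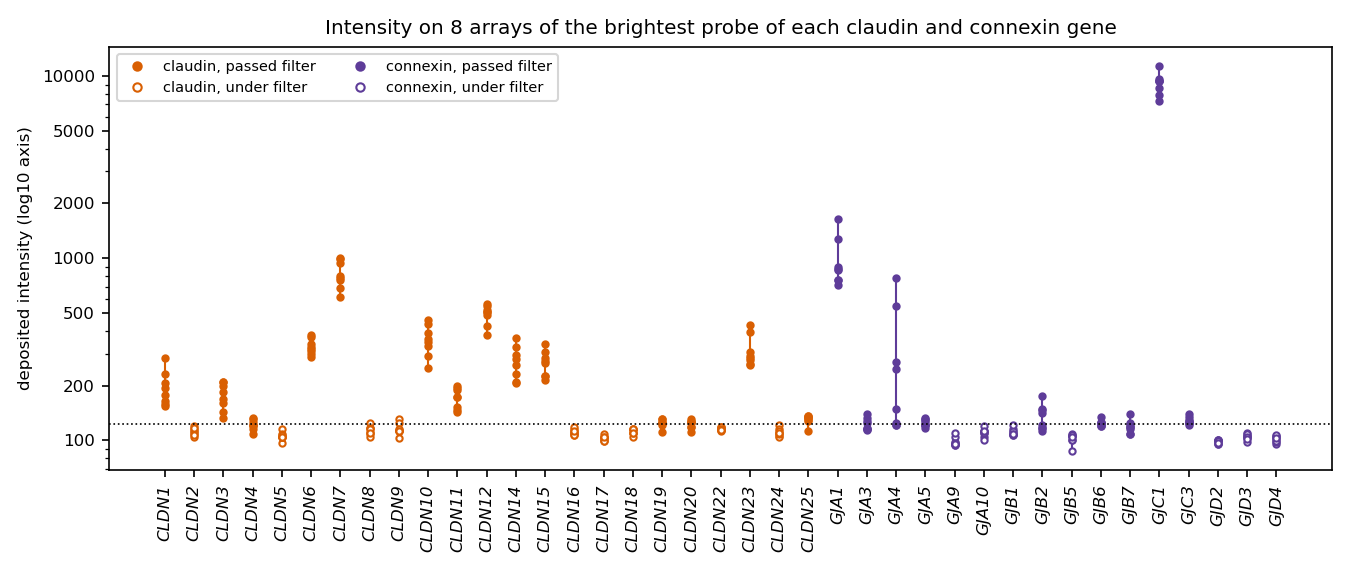
Deposited intensity (vertical log10 axis) of the brightest probe of each of the 39 claudin and connexin genes, 1 point per array. Filled points mark the 23 genes that passed the filter, and the dotted line is the filter intensity of 123.7. Levels of different probes cannot be ranked against each other; the figure shows which genes stood clear of the filter.

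The filter asked for an intensity over 123.7, the 60th percentile of all values, on at least 2 arrays. It was passed by 60.9% of the claudins, 56.2% of the connexins and 62% of all genes. Among the claudins, 10 exceeded it on all 8 arrays: CLDN1, CLDN3, CLDN6, CLDN7, CLDN10, CLDN11, CLDN12, CLDN14, CLDN15 and CLDN23. Among the connexins, 2 did, GJA1 and GJC1. These are 43.5% of the claudins and 12.5% of the connexins, beside 46.7% of all genes, and the difference was not tested. The 9 claudins that did not pass read 97 to 131. They were CLDN2, CLDN5 (the claudin of the blood-brain barrier), CLDN8, CLDN9, CLDN16 (with a role in renal magnesium uptake), CLDN17, CLDN18 (of stomach and lung), CLDN22 and CLDN24. The 7 connexins that did not pass read 88 to 122. They were GJA9, GJA10, GJB1 (the liver and Schwann cell connexin), GJB5, GJD2 (the neuronal connexin), GJD3 and GJD4. A further 4 claudins (CLDN4, CLDN19, CLDN20 and CLDN25, at 109 to 137) and 5 connexins (GJA3, GJA5, GJB6, GJB7 and GJC3, at 108 to 140) passed but stayed under 150 on every array. Signal that close to the background leaves little room to see a change. Because a gene could pass through the group in which it was bright, counts over the tested members describe those genes only.

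Among the barrier claudins, CLDN1, the claudin of the skin barrier, was highest on the arrays labelled NANOG. It read 177 and 206 in control, 284 and 233 with NANOG, 155 and 164 with OCT4, and 194 and 158 with SOX2. Both NANOG arrays lay above every other array. Against OCT4 the difference was 1.83-fold (log2 0.87, SE 0.18, adjusted p = 0.0244) and against SOX2 1.62-fold (log2 0.69, SE 0.18, adjusted p = 0.0314). The difference from control did not pass (log2 0.53, SE 0.18, adjusted p = 0.175). The call against OCT4 ended without the array NANOG replicate 1 (adjusted p = 0.239), NANOG replicate 2 (0.0759), OCT4 replicate 1 (0.131) or OCT4 replicate 2 (0.124). The call against SOX2 ended without NANOG replicate 1 (0.236), NANOG replicate 2 (0.0701), either OCT4 array (0.0557) or SOX2 replicate 2 (0.0795), and also with only the compared groups in the fit (0.0922) or with array weights (0.0645).

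CLDN14, a claudin of the inner ear and the kidney in which mutations cause deafness, was ordered NANOG, control, OCT4, SOX2. It read 326 and 367 with NANOG, 296 and 281 in control, 261 and 231 with OCT4, and 206 and 210 with SOX2, and no neighbouring groups in that order overlapped. It fell by 0.57 on the log2 scale with SOX2 against control (SE 0.13, adjusted p = 0.0263). NANOG exceeded SOX2 1.83-fold (log2 0.87, SE 0.13, adjusted p = 0.00279) and OCT4 1.49-fold (log2 0.58, SE 0.13, adjusted p = 0.0311). The remaining neighbours, NANOG and control (log2 0.30, adjusted p = 0.273), control and OCT4 (-0.28, adjusted p = 0.678 for OCT4 against control) and OCT4 and SOX2 (0.30, adjusted p = 0.207), did not pass. The difference between NANOG and SOX2 was called under all 16 alternatives. The fall with SOX2 did not pass without control replicate 1 (adjusted p = 0.15) or 2 (0.0724) or either NANOG array (0.058), with array weights (0.117), with only the compared groups (0.12), and when the gene's probes were averaged (log2 -0.31, adjusted p = 0.111). The difference between NANOG and OCT4 was lost without NANOG replicate 1 (0.13), NANOG replicate 2 (0.259), OCT4 replicate 1 (0.0622) or OCT4 replicate 2 (0.23), and when probes were averaged (log2 0.25, adjusted p = 0.241). The other CLDN14 probe past the filter read at most 146 and stood at -0.06 for SOX2 against control and -0.01 for NANOG against SOX2.

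CLDN23, a less studied claudin of the gut and other epithelia, was high on the arrays labelled NANOG and level elsewhere. It read 259 and 291 in control, 432 and 396 with NANOG, 285 and 263 with OCT4, and 275 and 306 with SOX2. Both NANOG arrays exceeded all 6 others, which overlapped one another. The rise was 1.60-fold against control (log2 0.68, SE 0.13, adjusted p = 0.0297), 1.61-fold against OCT4 (adjusted p = 0.0169) and 1.50-fold against SOX2 (adjusted p = 0.017). Against control the call ended when control replicate 1 (adjusted p = 0.114) or 2 (0.109), NANOG replicate 1 (0.328) or 2 (0.165), or either OCT4 array (0.0544) was left out. Against OCT4 it was lost without NANOG replicate 1 (0.191), NANOG replicate 2 (0.0993), OCT4 replicate 1 (0.0605) or OCT4 replicate 2 (0.145), and against SOX2 without NANOG replicate 1 (0.152) or NANOG replicate 2 (0.0807) and with only the compared groups (0.0515).

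CLDN11, a claudin of myelin and of Sertoli cells, gave 1 call, near the threshold. It read 153 and 189 in control, 174 and 174 with NANOG, 199 and 193 with OCT4, and 143 and 147 with SOX2. OCT4 exceeded SOX2 1.50-fold (log2 0.59, SE 0.14, adjusted p = 0.0484), while the control arrays spanned most of the range between them. This call was lost under 10 of 16 alternatives, among them leaving out either OCT4 array (adjusted p = 0.222 and 0.181), either NANOG array (0.115) or SOX2 replicate 2 (0.06).

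The claudins best known from pluripotent cells and simple epithelia gave no call. CLDN6, a marker of pluripotent cells, read 368 and 379 in control, 300 and 319 with NANOG, 340 and 309 with OCT4, and 287 and 327 with SOX2. Both control arrays were the highest, but the changes did not pass with NANOG (log2 -0.31, 95% interval -0.59 to -0.02, adjusted p = 0.255), OCT4 (-0.23, adjusted p = 0.772) or SOX2 (-0.33, 95% interval -0.61 to -0.04, adjusted p = 0.136). CLDN7, on basal and lateral membranes of epithelia, read 800 and 757 in control, 988 and 948 with NANOG, 777 and 616 with OCT4, and 687 and 998 with SOX2. The SOX2 arrays of CLDN7 spanned nearly the range of all the others, and no comparison passed. CLDN3 read 168 and 199 in control and 133 and 144 with NANOG, at log2 -0.54 (SE 0.19, adjusted p = 0.186), and 184 and 208 with OCT4. Its SOX2 arrays, at 209 and 161, overlapped both control and OCT4.

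The pore-forming claudins CLDN10 and CLDN15 were lower with NANOG in value, without a call. CLDN10, a paracellular ion channel of kidney and skin glands, read 359 and 458 in control, 251 and 291 with NANOG, 348 and 387 with OCT4, and 331 and 435 with SOX2. Both NANOG arrays were below all others (log2 -0.67 against control, SE 0.19, adjusted p = 0.113), and its other probe past the filter stood at -0.46. CLDN10 and CLDN3 both passed in that comparison without either SOX2 array, with array weights or with only the compared groups in the fit. CLDN15, a sodium pore of the intestine, read 285 and 227 in control, 227 and 214 with NANOG, 266 and 306 with OCT4, and 338 and 274 with SOX2 (log2 -0.56 for NANOG against SOX2, adjusted p = 0.0634). CLDN12, a claudin linked to calcium passage in the gut, read 378 to 560 over the 8 arrays with overlapping groups.

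The promoters of CLDN1 and CLDN14 are shown because both genes were higher on the arrays labelled NANOG than on those labelled OCT4 and SOX2. Each runs 5′ to 3′ from 250 bases before the start of the RefSeq gene to 50 after it (GRCh38.p14). That of CLDN1 is at chr3:190322397-190322696 and that of CLDN14 at chr21:36576520-36576819, both on the minus strand. Capitals mark matches, on either strand, to any of 6 motifs: GC box GGGCGG, SNAI and ZEB E-box CAGGTG, SOX core ACAATG, NANOG core TAATGG, octamer ATGCAAAT and TATA box TATAAA, where the SOX core and the octamer can share their ATG.
CLDN1: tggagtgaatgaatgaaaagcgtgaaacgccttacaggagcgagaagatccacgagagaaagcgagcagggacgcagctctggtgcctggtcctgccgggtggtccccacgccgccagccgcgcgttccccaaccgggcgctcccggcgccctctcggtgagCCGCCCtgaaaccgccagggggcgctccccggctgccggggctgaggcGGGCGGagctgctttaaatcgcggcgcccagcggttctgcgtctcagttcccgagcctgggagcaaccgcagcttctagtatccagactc
CLDN14: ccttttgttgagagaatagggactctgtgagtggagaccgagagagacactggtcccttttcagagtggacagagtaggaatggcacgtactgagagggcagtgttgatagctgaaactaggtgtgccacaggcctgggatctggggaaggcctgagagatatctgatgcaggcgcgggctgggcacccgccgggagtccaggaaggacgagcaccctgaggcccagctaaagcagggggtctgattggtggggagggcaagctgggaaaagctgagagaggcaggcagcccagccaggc
CLDN1 held 2 GC boxes and a GC content of 67.0%, and CLDN14 held none of the 6 motifs at 59.3%. RefSeq promoters were found for 28 of the 39 genes, 18 claudins and 10 connexins. A GC box was in 7 of the 18 claudin and 3 of the 10 connexin promoters, against 45.0% of 35116 promoters in all. The SOX core was in 2 claudin promoters (CLDN20 and CLDN22) and 1 connexin promoter (GJB1), against 10.8%. The NANOG core was in 2 claudin promoters (CLDN18 and CLDN20) and no connexin promoter, against 6.81%, and the octamer, present in 1.77%, was in no member's promoter. The E-box was in 4 claudin promoters (CLDN3, CLDN6, CLDN18 and CLDN25) and 4 connexin promoters (GJA3, GJB1, GJB2 and GJD2), against 20.6%. A match is a description of letters in this window, not a binding site.

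**Figure D2:**
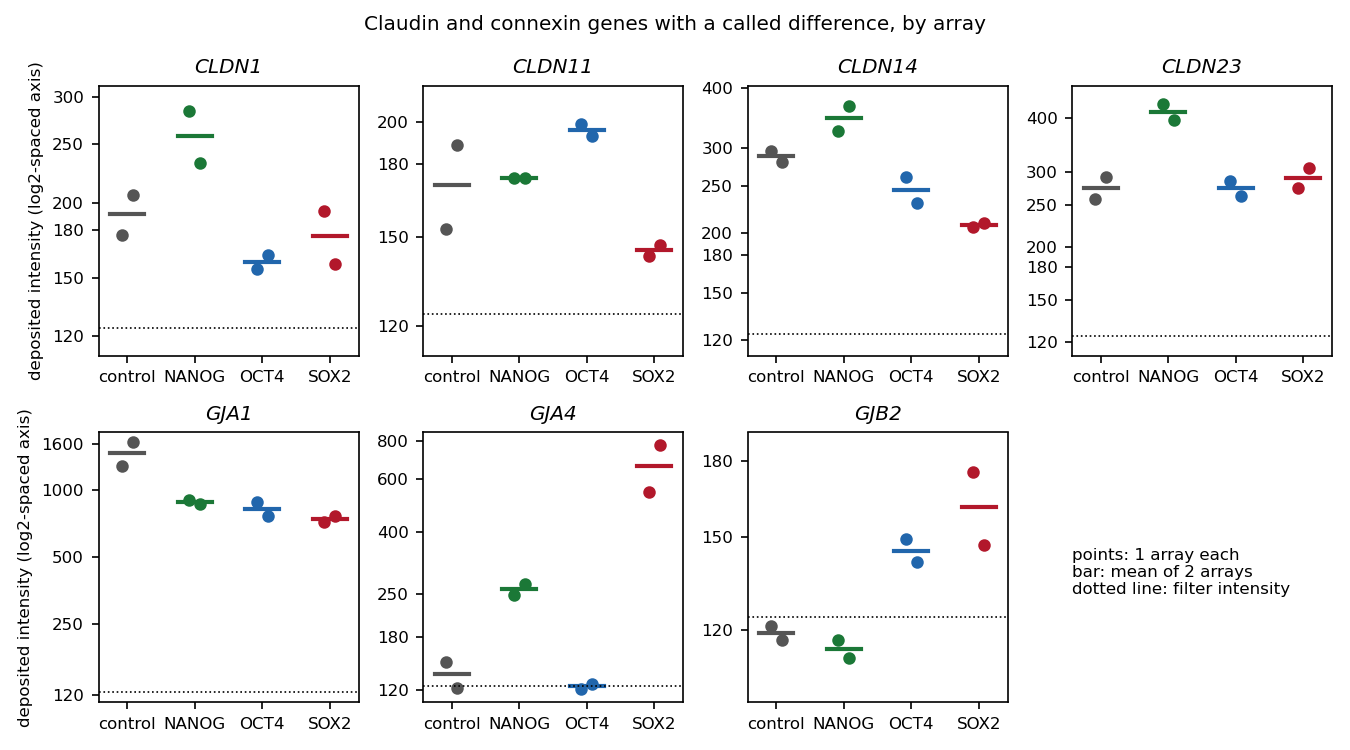
Deposited intensity (log2-spaced vertical axes, a different range in each panel) of the 7 members called in at least 1 of 6 comparisons, with 1 point per array and a bar at the mean of each group of 2 arrays. The dotted line is the filter intensity of 123.7. GJA4 reaches 544 and 778 on the arrays labelled SOX2, GJA1 is highest in control at 1270 and 1639, and CLDN23 is highest with NANOG at 432 and 396.

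Among the alpha connexins, GJA4 varied most. It read 148 and 122 in control, 247 and 269 with NANOG, 121 and 125 with OCT4, and 544 and 778 with SOX2. Each SOX2 array exceeded each NANOG array, and each NANOG array exceeded the control and OCT4 arrays, which overlapped at the filter intensity. GJA4 rose 6.64-fold with SOX2 against control (log2 2.73, SE 0.20, 95% interval 2.27 to 3.19, adjusted p = 0.000342) and 2.36-fold with NANOG (log2 1.24, SE 0.20, adjusted p = 0.0159). The level with SOX2 was itself 2.82-fold that with NANOG (adjusted p = 0.00192) and 7.50-fold that with OCT4 (adjusted p = 0.000318), and NANOG exceeded OCT4 2.66-fold (adjusted p = 0.00495). OCT4 against control was at -0.18 (adjusted p = 0.954). In both the control and the OCT4 group only 1 of the 2 arrays exceeded the filter intensity, so the folds over them rest on a level at the background. On the deposited intensities the SOX2 level was 4.85-fold that of control, 5.28-fold that of OCT4 and 2.52-fold that of NANOG, and the NANOG level was 1.92-fold that of control and 2.09-fold that of OCT4. All 3 comparisons with SOX2 were called under each alternative that kept the gene, with log2 changes against control from 2.28, with no background correction, to 3.33, with an offset of 16. The filter on all 8 arrays removed it. The rise with NANOG did not pass once control replicate 2 (adjusted p = 0.147), NANOG replicate 1 (0.163) or NANOG replicate 2 (0.165) was left out, and the difference between NANOG and OCT4 without NANOG replicate 1 (0.0631) or NANOG replicate 2 (0.0696).

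Of 10 listed markers of endothelium and blood, where GJA4 is best known, 5 were tested, and none was called against control. Of all genes 3.63% were called with NANOG, 0.281% with OCT4 and 11.1% with SOX2, shares at which 5 genes can easily give no call. PECAM1, CDH5, VWF, PTPRC and HBE1 were under the filter, with PECAM1 at 107 to 122 and CDH5 at 96 to 108 over the 8 arrays. KDR and TEK exceeded the filter intensity on every array. KDR read 138 to 190. TEK read 165 and 299 in control, 126 and 130 with NANOG, 155 and 208 with OCT4, and 210 and 206 with SOX2. EGFL7 and ESAM read at most 147 and 133. The list's summed intensity was 1284 to 1346 in control, 1163 to 1244 with NANOG, 1224 to 1264 with OCT4 and 1250 to 1338 with SOX2, so SOX2 overlapped control. The sum includes the 5 markers under the filter, and the control values of TEK lay far apart, so the sum can show little. CD34 read 166 and 173 with SOX2 against 129 and 136 in control, without a call. It was called higher with SOX2 than with NANOG and OCT4 (log2 -0.72 for NANOG against SOX2, adjusted p = 0.0138, and -0.63 for OCT4 against SOX2, adjusted p = 0.0448). In both the NANOG and the OCT4 group only 1 of the 2 arrays exceeded the filter intensity. The deposited folds were 1.42 and 1.36.

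GJA1, the most widespread connexin and the main one of coupled stem cell colonies, was lower under all 3 factor labels than in control. It read 1270 and 1639 in control, 899 and 866 with NANOG, 877 and 763 with OCT4, and 714 and 761 with SOX2. All 6 factor arrays lay below both control arrays. GJA1 fell by 1.01 on the log2 scale with SOX2 (SE 0.15, 95% interval -1.35 to -0.67, adjusted p = 0.00595) and by 0.74 with NANOG (SE 0.15, adjusted p = 0.0367). With OCT4 the change was -0.85 (SE 0.15, 95% interval -1.19 to -0.51), and it missed the threshold (adjusted p = 0.0811). The OCT4 difference was called without either SOX2 array and with array weights. These comparisons share the same 2 control arrays, and the factor groups did not differ from each other past the threshold (log2 0.11 for NANOG against OCT4, 0.27 for NANOG against SOX2 and 0.16 for OCT4 against SOX2). The fall with SOX2 held with any 1 array left out and was lost with only the compared groups in the fit (adjusted p = 0.0684). The fall with NANOG did not pass without control replicate 2 (log2 -0.55, adjusted p = 0.239), either NANOG array (0.292 and 0.276) or either OCT4 array (0.0594), nor with an offset of 16 (0.0563).

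Of the remaining alpha connexins that were tested, GJA3, of the lens, read 114 to 139 and GJA5, of the atria and arteries, 117 to 132. GJA3 was highest with NANOG, at 139 and 132 against 116 and 114 in control, without a call (log2 0.36, adjusted p = 0.179). GJA5 gave no call in any comparison.

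Among the beta connexins, GJB2, of the inner ear and the skin, was higher on the arrays labelled SOX2. It read 121 and 117 in control, 117 and 112 with NANOG, 149 and 141 with OCT4, and 175 and 147 with SOX2. The control and NANOG arrays were under the filter intensity, so GJB2 entered the tests through its OCT4 and SOX2 arrays. On the deposited intensities, with each dim array set at the filter intensity, it was at least 1.29-fold higher with SOX2 than in control (fitted log2 0.62 after background correction, SE 0.14, adjusted p = 0.0283). The bound against NANOG was also at least 1.29-fold (fitted log2 -0.70 for NANOG against SOX2, adjusted p = 0.0107). After background correction both bounds were 1.44-fold. OCT4 against control was at 0.42 (adjusted p = 0.445), and its arrays overlapped those of SOX2. The call against control did not pass without control replicate 1 (adjusted p = 0.115) or 2 (0.116), either NANOG array (0.0701) or either OCT4 array (0.0513), with only the compared groups (0.151) and with array weights (0.0705), and the call against NANOG without NANOG replicate 1 (0.0751) or NANOG replicate 2 (0.1) and with only the compared groups (0.0517).

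GJB2 lies between GJA3 and GJB6 on chromosome 13, next to each in the order of RefSeq protein-coding genes. Of the 3, only GJB2 was called. GJB6, which pairs with the GJB2 product in the inner ear, read 120 to 134 over the 8 arrays, and the second GJB6 probe was under the filter. GJB7 read 108 to 140, with no call.

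The promoters of GJA1 and GJB2 are shown because the genes moved in opposite directions on the arrays labelled SOX2. That of GJA1 is at chr6:121435396-121435695 on the plus strand and that of GJB2 at chr13:20192889-20193188 on the minus strand (RefSeq, GRCh38.p14), in the same 300-base window and with the same motifs in capitals.
GJA1: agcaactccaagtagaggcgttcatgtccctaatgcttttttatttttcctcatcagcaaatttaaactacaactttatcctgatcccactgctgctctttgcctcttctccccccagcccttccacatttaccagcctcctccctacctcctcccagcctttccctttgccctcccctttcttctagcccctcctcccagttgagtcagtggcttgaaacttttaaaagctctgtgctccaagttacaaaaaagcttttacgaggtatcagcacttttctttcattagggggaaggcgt
GJB2: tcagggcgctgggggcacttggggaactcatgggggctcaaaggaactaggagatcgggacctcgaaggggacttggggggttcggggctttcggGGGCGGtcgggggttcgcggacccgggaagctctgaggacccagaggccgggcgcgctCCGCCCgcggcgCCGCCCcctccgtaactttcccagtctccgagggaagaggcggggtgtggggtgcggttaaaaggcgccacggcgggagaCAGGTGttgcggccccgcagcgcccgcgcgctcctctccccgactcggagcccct
GJB2 held 3 GC boxes and 1 E-box in a window of 71.7% GC, and GJA1 held none of the 6 motifs at 47.0%. GC content ran from 33.7% to 72.0% over the claudin promoters and from 35.7% to 74.7% over the connexin promoters, with a median of 58.7% over all promoters. No promoter of GJA4 or CLDN23 is shown.

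The gamma connexin GJC1, of the early heart and smooth muscle, had a bright probe and gave no call in the main model. It read 7304 and 8649 in control, 9408 and 9361 with NANOG, 9596 and 9423 with OCT4, and 11347 and 7916 with SOX2. Both NANOG and both OCT4 arrays lay above both control arrays. The SOX2 arrays enclosed all the factor arrays and 1 control array. The changes of 0.24, 0.26 and 0.26 against control did not pass, and for SOX2 the 95% interval was -0.14 to 0.65. The other GJC1 probe read at most 174. GJC3, a connexin of myelinating glia, read 122 to 139. The delta connexins were all under the filter.

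**Figure D3:**
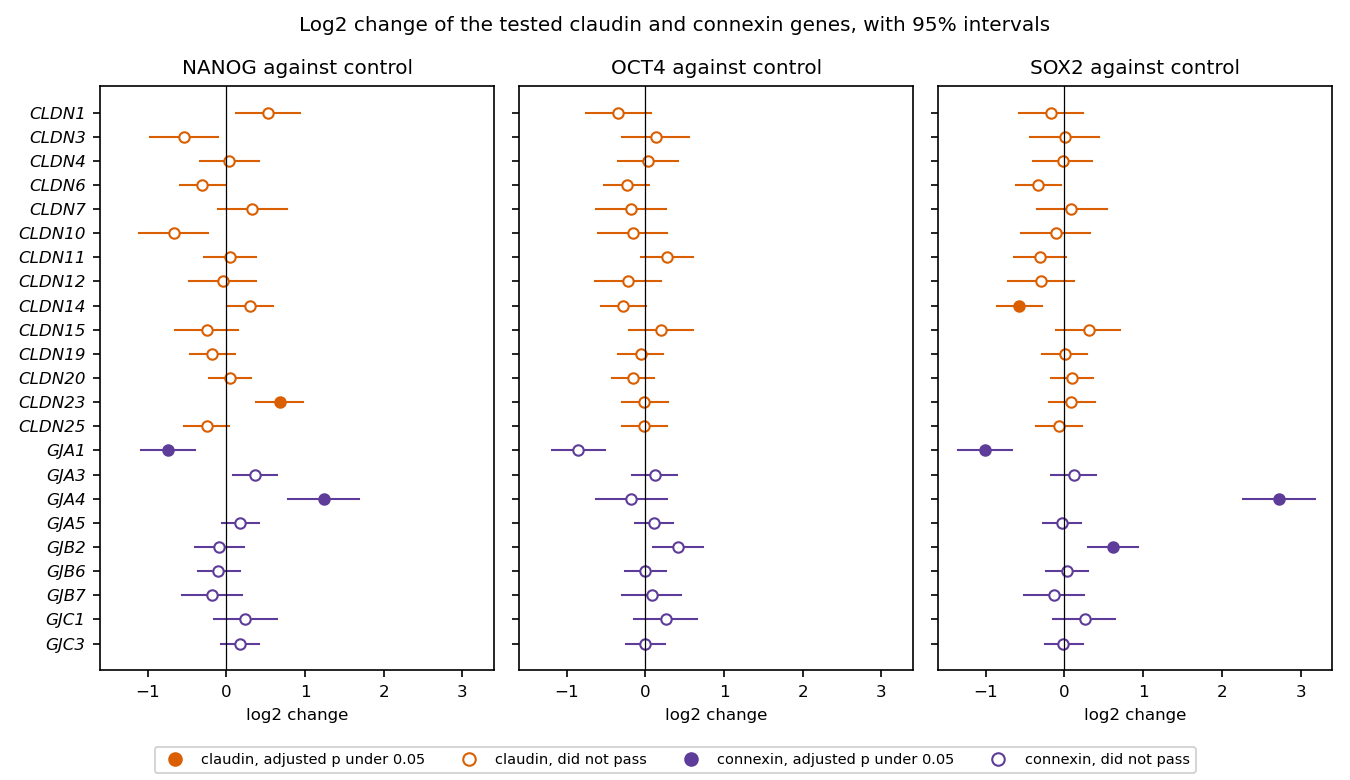
Log2 change (horizontal axes) against control of the 14 tested claudins and 9 tested connexins on the arrays labelled NANOG, OCT4 and SOX2. Points are fitted changes, lines are 95% intervals, and filled points passed an adjusted p of 0.05. GJA4 stands at 1.24 with NANOG and 2.73 with SOX2, and GJA1 lies below 0 in all panels, its point open with OCT4.

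Set side by side, the largest changes against control were of single connexins, and the medians of both families lay within 0.17 of 0. With NANOG against control, 3 of the 23 tested members were called (13%), 1 claudin up and 1 connexin up and 1 down, where 3.63% of all 12436 genes were called, 2.74% higher and 0.885% lower. The median log2 change was 0.00 over claudins (range -0.67 to 0.68), 0.17 over connexins (-0.74 to 1.24) and -0.02 over all genes. With SOX2 against control, 4 members were called (17.4%), 1 claudin down, 2 connexins up and 1 down, against 11.1% of all genes, 6.1% higher and 5.01% lower. The medians were -0.04 over claudins (range -0.57 to 0.31), 0.03 over connexins (-1.01 to 2.73) and 0.00 over all genes. With OCT4 against control limma called 0 members, against 0.281% of all genes (0.217% higher and 0.0643% lower), with 2 at an unadjusted p under 0.05 (GJA1 and GJB2), and a fit with array weights called 1, GJA1. The medians were -0.11 over claudins (range -0.34 to 0.27) and 0.08 over connexins (-0.85 to 0.42).

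With NANOG against control, leaving out control replicate 2 or either NANOG array gave 0 called members, either OCT4 array 1, and either SOX2 array 5. Calls over all genes moved as well, from 451 to 91 without control replicate 2, 49 and 72 without NANOG replicate 1 and 2, 334 without either OCT4 array and 1092 without either SOX2 array. With SOX2 against control it was 2 without either control array or either NANOG array, where calls over all genes went from 1382 to 336 and 817 and to 608. With OCT4 it was 1 without either SOX2 array, where those over all genes went from 35 to 147.

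Between the factor groups, the claudin calls of the main model had NANOG higher in each case that involved it. NANOG against OCT4 gave 4 calls among the 23 members (17.4%, against 7.16% of all genes, 4.32% higher and 2.84% lower), with CLDN1, CLDN14, CLDN23 and GJA4 all higher with NANOG. NANOG against SOX2 gave 5 (21.7%, against 17.7%, 8.81% higher and 8.93% lower), with CLDN1, CLDN14 and CLDN23 higher with NANOG and GJA4 and GJB2 higher with SOX2. OCT4 against SOX2 gave 2 (8.7%, against 6.9%, 2.99% higher and 3.91% lower), CLDN11 higher with OCT4 and GJA4 higher with SOX2. NANOG enters both of the first pairs with the same arrays. With array weights or only the compared groups in the fit, 4 claudins were called higher with NANOG than with OCT4 and 3 lower. Those lower with NANOG were CLDN3, CLDN10 and CLDN15. The count for NANOG against OCT4 was 0 without either NANOG array, 1 without either OCT4 array and 7 without either SOX2 array. Over all genes the calls went from 890 to 128 and 186, to 465 and 247, and to 1889 in the same order. For NANOG against SOX2 it was 2 without either NANOG array (2205 over all genes went to 607 and 671), and for OCT4 against SOX2 it was 1 without either NANOG array, either OCT4 array or SOX2 replicate 2 (858 over all genes went to 378, to 238 and 278, and to 859).

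CLDN6 and CLDN9 are neighbours on chromosome 16, CLDN22 and CLDN24 on chromosome 4, and CLDN3 and CLDN4 on chromosome 7. Whether a probe for one member also binds its relatives was not tested, so their values are uncertain to that extent. Of these genes CLDN3, CLDN4 and CLDN6 were tested and gave no call.

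**Figure D4:**
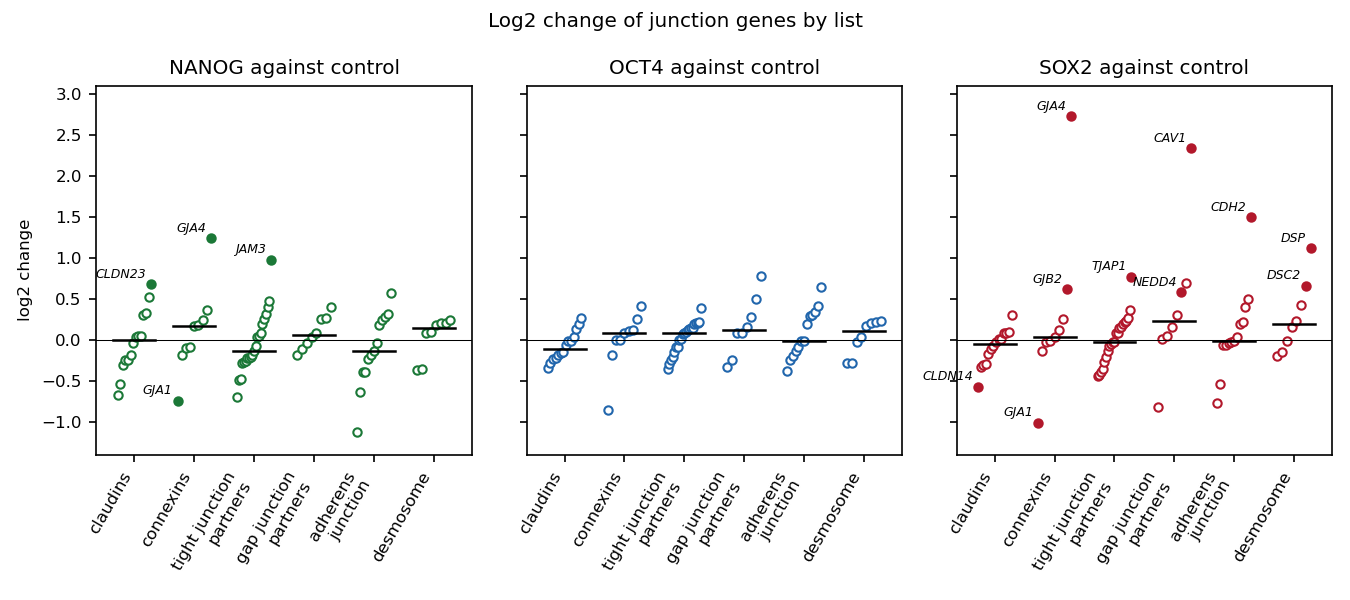
Log2 change (vertical axis) against control of the claudins, the connexins and the genes of 4 junction partner lists, 1 panel per factor label. Filled and named points passed an adjusted p of 0.05, and black bars are list medians. CAV1 at 2.34, CDH2 at 1.50 and DSP at 1.12 passed with SOX2, JAM3 at 0.98 with NANOG, and no point is filled with OCT4.

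Genes for the proteins that claudins work with at the tight junction were called at 4.76% with NANOG and 4.76% with SOX2 against control, beside 3.63% and 11.1% of all genes. Of 28 listed partners 22 were found and 21 tested. With NANOG against control 1 rose and 0 fell: JAM3, a junctional adhesion molecule, which read 710 and 703 in control and 1412 and 1296 with NANOG (log2 0.98, SE 0.12, adjusted p = 0.00433). With SOX2 1 rose and 0 fell, TJAP1, a tight junction-associated protein (log2 0.77, adjusted p = 0.0195), and with OCT4 limma called 0, with 2 at an unadjusted p under 0.05. The scaffold gene TJP1 read 719 to 966 over the 8 arrays without a call, and OCLN, for the strand protein occludin, was under the filter. NANOG exceeded OCT4 in JAM3 (log2 0.83), in PATJ (0.83) and in CRB3 (0.49), which encode members of the Crumbs polarity complex, and none was lower. NANOG exceeded SOX2 in JAM3 (0.75), PATJ (0.61) and CRB3 (0.47) and was lower in JAM2 (-0.64), and OCT4 was also lower than SOX2 in JAM2 (-0.57). In NANOG against OCT4, NANOG against SOX2 and OCT4 against SOX2, 14.3%, 19% and 4.76% of the tested partners were called. Of all genes 7.16%, 17.7% and 6.9% were called in the same order. PATJ read 243 and 239 with NANOG and at most 187 on the other arrays.

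Of 10 gap junction partners 8 were tested, and 2 rose and 0 fell with SOX2 against control (25%, beside 11.1% of all genes). With NANOG and OCT4 limma called 0, with 0 and 1 at an unadjusted p under 0.05. CAV1, the main protein of caveolae, which binds the GJA1 product, read 562 and 824 in control and 3035 and 3510 with SOX2 (log2 2.34, SE 0.26, adjusted p = 0.00198). NEDD4, a ubiquitin ligase that acts on the GJA1 protein, rose by 0.58 (adjusted p = 0.0203). Both were also higher with SOX2 than with NANOG (25% of the list, beside 17.7% of all genes). CAV1 was also higher than with OCT4 (12.5%, beside 6.9%). The pannexin genes PANX1 and PANX2, whose channels resemble connexin half-channels, were not called and read 156 to 183 and 177 to 296.

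On the arrays labelled SOX2, 1 adherens junction gene and 2 desmosome genes rose against control. Of 13 tested adherens junction genes 1 rose and 0 fell (7.69%, beside 11.1% of all genes). It was CDH2, N-cadherin, from 1167 and 1947 to 4959 and 3514 (log2 1.50, SE 0.25, adjusted p = 0.00921). CDH1, E-cadherin, read 1700 and 1924 in control, 1437 and 1342 with NANOG, 1619 and 1539 with OCT4, and 2111 and 2672 with SOX2, and was called higher with SOX2 than with NANOG (log2 -0.79 for NANOG against SOX2, adjusted p = 0.00716) and OCT4 (-0.60, adjusted p = 0.0429). VCL, for vinculin, was lower with NANOG than with OCT4 (log2 -0.98) and SOX2 (-0.86). Against OCT4, NANOG was also lower in NECTIN3, a nectin (log2 -1.42). CTNND2 was called higher with OCT4 than with NANOG, at least 1.26-fold on the deposited intensities. It read 136 and 180 with OCT4, 108 and 121 in control, 101 and 106 with NANOG, and 109 and 116 with SOX2. CTNND2 thus entered the tests through its OCT4 arrays only. Of 8 desmosome genes 2 rose with SOX2, DSP, for the plaque protein desmoplakin, from 258 and 264 to 438 and 617 (log2 1.12, adjusted p = 0.00688), and DSC2, for a desmocollin (0.66, adjusted p = 0.0123), and 0 fell (25%, beside 11.1% of all genes). Both were also higher with SOX2 than with NANOG, and DSP than with OCT4. PERP, a desmosomal membrane protein, was lowest with OCT4, at 143 on both arrays (log2 0.50 for NANOG against OCT4 and -0.52 for OCT4 against SOX2). In NANOG against OCT4, NANOG against SOX2 and OCT4 against SOX2, 23.1%, 23.1% and 15.4% of adherens junction genes were called. Of desmosome genes 12.5%, 25% and 25% were, beside 7.16%, 17.7% and 6.9% of all genes. With NANOG against control limma called 0 adherens junction and 0 desmosome genes (4 and 0 at an unadjusted p under 0.05), and with OCT4 also 0 and 0 (2 and 1).

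The summed markers of trophectoderm and epithelium were lowest on the arrays labelled NANOG, where CLDN23 was highest. Of 12 trophectoderm and epithelial markers KRT7, GATA2, GATA3, HAND1, CDX2 and CGA were under the filter, and the summed intensity was 3844 to 4104 in control, 3504 to 3523 with NANOG, 3773 to 3931 with OCT4 and 4121 to 4484 with SOX2. TFAP2C rose with NANOG against control (log2 0.81, adjusted p = 0.0348), while KRT8 and KRT19 were lower with NANOG than with SOX2 (log2 -0.83 and -0.74). The endoderm markers SOX17, FOXA2, GATA4 and GATA6 and the neural markers PAX6, SOX1, ZIC1 and SIX3 were under the filter too. The endoderm list also holds CXCR4, a chemokine receptor, which read 118 and 127 in control, 190 and 189 with NANOG, 155 and 131 with OCT4, and 222 and 199 with SOX2. CXCR4 rose with NANOG (log2 0.88, adjusted p = 0.0173) and SOX2 (1.06, adjusted p = 0.0041) against control. Only 1 of its 2 control arrays exceeded the filter intensity, and the deposited folds were 1.55 and 1.71. Of the 3 tested endoderm markers, 1 was above and 2 were below control with NANOG, and all 3 were above it with SOX2. AFP was called higher with OCT4 and SOX2 than with NANOG, at least 1.96-fold and 1.74-fold on the deposited intensities. Summed endoderm markers were 821 to 889 in control, 876 to 912 with NANOG, 928 to 1077 with OCT4 and 1050 to 1108 with SOX2. Summed neural markers were 3865 to 4711, 4036 to 4039, 4064 to 4469 and 4741 to 5098 in the same order. Of the 7 tested neural markers, 3 were above and 4 were below control with SOX2 (median log2 -0.01), without a call. NES read 878 and 1758 with SOX2 against 892 and 945 in control. SOX3 read 205 and 243 with SOX2 against 253 and 331 in control. It was called higher with OCT4 than with NANOG (log2 -1.90 for NANOG against OCT4) and SOX2 (1.39 for OCT4 against SOX2). The fibroblast markers LUM, POSTN, FAP and PDGFRA were under the filter, and COL1A2 fell with SOX2 against control (log2 -0.84, adjusted p = 0.031). Summed fibroblast markers were 3339 to 3751, 4201 to 4360, 4002 to 4291 and 2719 to 3486 in the same order. THY1 read 1409 and 1374 in control, 2692 and 2529 with NANOG, and 2252 and 1982 with OCT4. COL1A1 read 713 and 1063, 410 and 450, and 401 and 705 in those groups. Of the 6 tested fibroblast markers, 1 was above and 5 were below control with NANOG. With OCT4, 5 were above and 1 was below. The stem cell marker sum was lower than in control under all 3 factor labels, and lowest with SOX2. The part of this and of the other marker differences in the changes of junction genes was not tested.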

How the data were processed

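Total RNA of 8 samples of H1 cells, 2 in each of 4 groups, was measured on Illumina arrays after biotin labelling, per the labels' protocols. The authors deposited intensity values for 47323 probes on a linear scale, from 86.3 to 22884. When each array was sorted, no rank differed by over 2.3 between arrays, as quantile normalization gives, and the sources used here do not name the tool. A further table has 16 columns of signals and detection p-values whose names match no label, and it was not used in any step.

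Intensities were corrected with normexp (offset 50) in limma 3.58.1 under R 4.3.3 and taken to log2. Probes over 123.7 on at least 2 arrays were kept (21828 probes), and each gene was represented by its probe of highest mean (12436 genes). Symbols came from the platform annotation, where 30113 probes had 1 symbol, 8 several and 17202 none. Of the former, 30074 matched a RefSeq table of GRCh38.p14 by gene number. A single model with a mean per group gave 6 two-sided comparisons with 4 residual and 4.39 prior degrees of freedom, and the steps were tested on simulated data. The precision is limited by 2 arrays per group. The deposited intensity gives no counts, so no depth applies.

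Named genes were all claudins and connexins, in full where called, and up to 4 called genes of each partner list. The members and lists were chosen with earlier results of these data known. Alternatives were no background correction, an offset of 16, no filter, a filter on all 8 arrays, only the compared groups, a replicate block, array weights, the mean over probes and leaving out each array.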

Additional observations from a re-analysis of the deposited data

How the results depend on the processing

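Of 18 calls of single claudin and connexin genes, 4 held under every alternative that kept the gene (GJA4 in the 3 comparisons with SOX2, and CLDN14 for NANOG against SOX2), and none changed direction. Over 281 gene alternatives, 210 kept the call and 71 lost it, and the causes were not tested. The number of members called moved as follows. With only the 2 compared groups in the fit it was 5 in place of 3 for NANOG against control, 1 in place of 4 for SOX2 against control, 9 in place of 4 for NANOG against OCT4, 2 in place of 5 for NANOG against SOX2 and 1 in place of 2 for OCT4 against SOX2. The calls over all genes moved likewise, from 451 to 1217, 1382 to 207, 890 to 2529, 2205 to 1400 and 858 to 184. With array weights it was 5 (NANOG) and 2 (SOX2) against control, 1 for OCT4 against control in place of 0, 9 for NANOG against OCT4 and 1 for OCT4 against SOX2. With the filter on all 8 arrays, which removed GJA4 and GJB2, it was 2 for SOX2 against control, 3 for NANOG against SOX2 and 0 for OCT4 against SOX2. With no background correction it was 1 for OCT4 against SOX2. Leaving out 1 array gave 0 to 5 calls for NANOG, 0 to 1 for OCT4 and 2 to 5 for SOX2 against control, 0 to 7 for NANOG against OCT4, 2 to 7 for NANOG against SOX2 and 1 to 3 for OCT4 against SOX2.

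The labels give no shared origin for replicate numbers, and deviations of same-numbered arrays correlated between -0.19 and 0.38 across groups. With the replicate number as a block, 3, 0 and 4 members were called for NANOG, OCT4 and SOX2 against control, 3 for NANOG against OCT4, 6 for NANOG against SOX2 and 1 for OCT4 against SOX2. Under the block the calls of GJA1 for NANOG against control (adjusted p = 0.0576), CLDN14 for NANOG against OCT4 (0.0505) and CLDN11 for OCT4 against SOX2 (0.0603) did not pass, and CLDN10 passed for NANOG against control and against SOX2. Signal near the background limits the 9 tested members that stayed under 150 on every array.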
